A study of Mus musculus with 46 samples.

Results

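Brca1 and 8 further genes of homologous recombination and its checkpoint (Bard1, Brca2, Rad51ap1, Rad54l, Exo1, Blm, Fancd2 and Chek1) were examined in mouse mammary tumors and normal mammary gland. The members were fixed by gene symbol, and each gene is described by its probe set with the highest average in the 46 arrays. Of the 9 listed genes, 8 had a probe set in the deposited table and 7 passed the filter on low values and were tested, among 9329 genes tested in all. No probe set for Fancd2 was paired in the annotation used here, so it was not analysed here, and Bard1 was below the filter in every array.

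Messenger RNA was measured on 46 Affymetrix mouse oligonucleotide arrays, in 41 primary tumors of 8 genetically engineered models and 5 normal glands of pregnant FVB mice (FVB pregnant). In C3TAg (n = 5, FVB) the C3(1) promoter drives the SV40 T antigens, whose large T protein binds the retinoblastoma and p53 proteins. In MMTV-Hras (n = 5), MMTV-H2N (n = 5; the study's Her2/neu model), MMTV-C-Myc (n = 4), MMTV-PymT (n = 6; polyoma middle T antigen) and MMTV-Wnt (n = 4), all FVB, the mouse mammary tumor virus promoter drives the named transgene. The p53-/- tumors (n = 7, Balb/C) came from a transplant of p53 floxed, MMTV-cre mammary tissue, and the Brca1-/-p53+/- tumors (n = 5, 129B6/FVB) from mice with floxed Brca1 alleles, 1 p53 allele and MMTV-cre. Which cells of a tumor had lost the floxed alleles was not measured here, and for these models strain and genotype cannot be told apart. The sources used here give no ages. All glands came from pregnant mice, so effects of pregnancy and of tumor cannot be separated in comparisons with them. Each tumor came from its own mouse and RNA was taken from whole tissue, so fewer cells of a type and less RNA per cell cannot be told apart.

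Homologous recombination repairs DNA double-strand breaks with the sister chromatid as template, and it works mainly in S and G2 phase. BRCA1 and its partner BARD1 form a ubiquitin ligase that favors resection of the broken ends by nucleases such as EXO1 and the BLM helicase, and BRCA2, RAD51AP1 and RAD54L act in the later steps, in which the resected strand pairs with the template. CHEK1 is the kinase that holds the cell cycle when replication or repair is incomplete. Loss of BRCA1 in human breast epithelium is known to predispose to basal-like carcinoma.

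Values are GC-RMA values on the log2 scale, a difference of 1 is a doubling, and a gene was called when limma's Benjamini-Hochberg adjusted p over all genes tested was below 0.05. The medians of the arrays ranged from 6.48 to 7.48. Arrays of a group resembled each other least in Brca1-/-p53+/- (mean correlation 0.785) and most in MMTV-H2N (0.979). Brca1-/-p53+/- replicate 2 stood apart: its proliferation score, the mean z-score of 26 mitotic genes, was -2.33 and its adipocyte score 2.48, while the glands had proliferation scores from -2.04 to -1.39 and adipocyte scores from 1.74 to 2.25. Brca1-/-p53+/- replicates 3 and 4 had the luminal epithelium scores -1.96 and -3.02, against -1.13 to 0.29 in the other 3 tumors of that model.

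The promoters of 4 members are printed. Brca1 and Rad54l were the members whose difference in C3TAg passed the test with and without the proliferation score in the fit. Brca2 and Rad51ap1 are 2 of the 4 members with an E2F-like word, and the other 2, Bard1 and Chek1, are not printed. Each printed promoter runs 5′ to 3′ on the strand of the gene from 250 bases before the start of the transcript to 50 bases after it. The sequences are from RefSeq (GRCm38.p6), and capitals mark CCAAT (or ATTGG) and the E2F-like words.
Brca1 (chr11:101551906-101552205, minus strand): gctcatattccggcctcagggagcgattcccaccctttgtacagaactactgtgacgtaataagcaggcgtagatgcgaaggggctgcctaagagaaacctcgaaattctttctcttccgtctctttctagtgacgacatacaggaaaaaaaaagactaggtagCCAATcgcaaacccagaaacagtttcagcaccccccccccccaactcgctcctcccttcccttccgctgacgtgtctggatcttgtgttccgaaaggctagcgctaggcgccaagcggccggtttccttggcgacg
Rad54l (chr4:116123641-116123940, minus strand): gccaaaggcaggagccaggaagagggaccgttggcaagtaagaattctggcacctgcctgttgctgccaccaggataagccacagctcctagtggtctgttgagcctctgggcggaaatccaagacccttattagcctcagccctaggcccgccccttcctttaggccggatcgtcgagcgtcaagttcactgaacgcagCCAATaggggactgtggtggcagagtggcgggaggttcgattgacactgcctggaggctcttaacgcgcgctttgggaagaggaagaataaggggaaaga
Brca2 (chr5:150522371-150522670, plus strand): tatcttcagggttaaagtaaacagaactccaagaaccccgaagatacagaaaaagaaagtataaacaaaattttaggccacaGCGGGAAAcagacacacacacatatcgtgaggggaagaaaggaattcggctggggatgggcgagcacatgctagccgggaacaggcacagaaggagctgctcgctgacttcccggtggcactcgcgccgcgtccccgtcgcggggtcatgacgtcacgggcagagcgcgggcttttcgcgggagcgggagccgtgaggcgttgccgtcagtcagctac
Rad51ap1 (chr6:126939538-126939837, minus strand): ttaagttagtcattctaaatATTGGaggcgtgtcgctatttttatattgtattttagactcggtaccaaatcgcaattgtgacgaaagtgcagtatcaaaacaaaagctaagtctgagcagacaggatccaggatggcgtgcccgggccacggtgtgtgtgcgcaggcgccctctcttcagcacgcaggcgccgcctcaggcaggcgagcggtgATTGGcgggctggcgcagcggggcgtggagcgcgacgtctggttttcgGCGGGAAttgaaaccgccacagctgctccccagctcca
Of the 9 members, 7 matched a promoter in the table (Exo1 and Fancd2 did not), and a match describes letters only. The word CCAAT, read on both strands, was found in 4 of the 7 (Brca1, Rad54l, Blm and Rad51ap1) and in 37.4% of 32851 promoters of this length. Counted from the start of the transcript, it lay at -86 to -82 in Brca1 and at -50 to -46 in Rad54l. One of the 8-base E2F words TTTCCCGC, TTTCGCGC, TTTGCCGC and TTTGGCGC was found in 2 of the 7 (Bard1 and Brca2) and in 2.26% of all promoters. The shorter TTCCCGC, part of the first of them, was found in 4 of the 7 (Bard1, Brca2, Rad51ap1 and Chek1) and in 4.60% of all promoters. The cell-cycle word TTTGAA or TTCGAA was found in 1 of the 7 (Bard1) and in 19.2% of all promoters.

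Brca1 was highest in C3TAg, lay between these tumors and the gland in the other models, and was lowest in the normal gland. In C3TAg the 5 arrays read 10.15, 9.78, 10.13, 10.88 and 10.35 (10.26 ± 0.40, SD). In p53-/- they ran from 7.53 through a median of 8.08 to 8.29 (7.93 ± 0.35, n = 7). In Brca1-/-p53+/- they read 7.30, 5.71, 8.69, 7.44 and 7.68 (7.36 ± 1.07). No C3TAg array overlapped any other tumor, since the highest of the other 36 tumors read 8.69.

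Among the luminal-type models, MMTV-H2N read 7.92, 7.35, 6.96, 7.26 and 7.17 (7.33 ± 0.36). MMTV-C-Myc read 6.54, 5.27, 8.15 and 8.25 (7.06 ± 1.42), and MMTV-PymT ran from 6.71 through 7.01 to 7.31 (7.01 ± 0.29, n = 6). These neighbors in the order overlapped. MMTV-Wnt read 6.83, 7.76, 5.85 and 6.72 (6.79 ± 0.78). MMTV-Hras was the lowest of the models, with 3.93, 5.88, 6.35, 5.89 and 5.45 (5.50 ± 0.93). The glands read 5.20, 2.99, 2.67, 2.62 and 3.94 (3.48 ± 1.10), and 1 of 5 was over 4, the filter. In the order of the 9 group means the step from C3TAg to p53-/- (2.33) was the only one between neighbors whose arrays did not overlap.

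**Figure D1:**
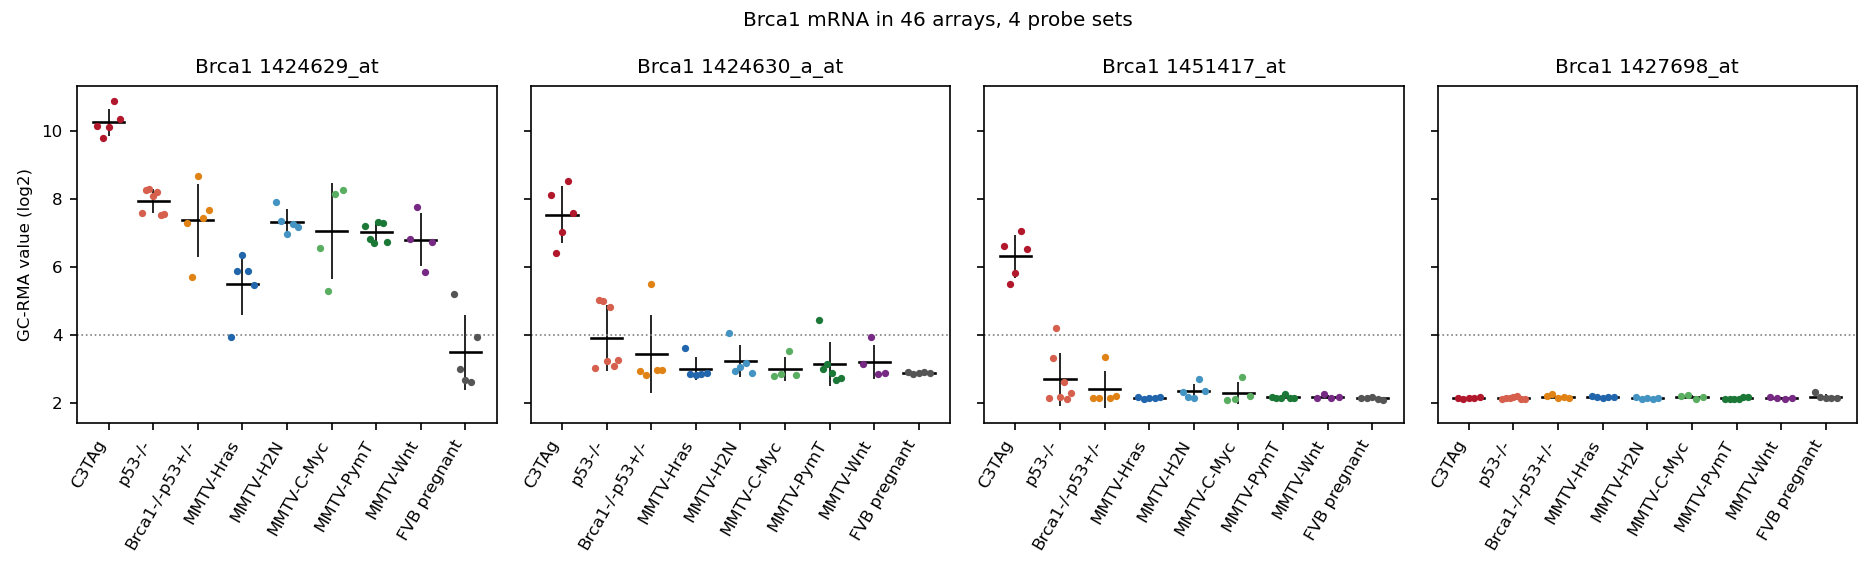
Brca1 in each of the 46 arrays (GC-RMA value, log2 scale) for its 4 probe sets, by group; points are arrays, horizontal lines group means, vertical lines SD and the dotted line the filter at 4. The 5 C3TAg arrays stand above all other tumors in the first 3 probe sets, and the fourth is at or below 2.30 in every array.

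Brca1 had 4 probe sets, which differed in level. The one used, 1424629_at, was over 4 in 40 of 41 tumors. The probe set 1424630_a_at was over 4 in 11 of 41 tumors and in none of the glands, with means of 7.53 ± 0.84 in C3TAg (n = 5), 3.91 ± 0.97 in p53-/- (n = 7) and 2.88 ± 0.03 in the glands (n = 5). The probe set 1451417_at was over 4 in 6 of 41 tumors, the 5 C3TAg tumors (5.51 to 7.05) and p53-/- replicate 3 (4.19). The probe set 1427698_at was not over 4 in any array. In C3TAg the 3 responding probe sets were all above every other tumor. Against the other 7 models they were higher by 3.26 ± 0.37 (SE), 4.26 ± 0.33 and 4.00 ± 0.22 in the limma fit of all probe sets. Outside C3TAg, 1451417_at was over 4 in 1 tumor only, so it passed the filter through C3TAg. Its difference is therefore no separate support for the height of Brca1 in C3TAg. The means of those 7 models were below 4 in 1424630_a_at (2.99 to 3.91) and in 1451417_at (2.14 to 2.68). Differences from such low values are compressed, so the sizes for these probe sets are not well resolved. In Brca1-/-p53+/- the higher-reading tumor was the same in all 3, replicate 3 with 8.69, 5.50 and 3.36.

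Bard1, the partner of BRCA1, had 1 probe set, and it did not reach 4 in any of the 46 arrays. C3TAg replicates 4 and 5 read 3.38 and 3.53 and replicate 1 read 2.50, while the highest of the other 36 tumors was 2.18 and the highest gland 2.10. Values this low do not resolve differences between groups, and Bard1 was not tested.

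The genes that act on broken ends, Exo1 (a nuclease) and Blm (a helicase of the RecQ family), were also highest in C3TAg. Exo1 read 8.75, 7.74, 8.05, 9.43 and 9.98 in C3TAg (8.79 ± 0.93) and 4.95, 4.54, 4.53, 4.84 and 4.58 in the glands (4.69 ± 0.19). MMTV-Hras was below the glands on average, with 4.85, 5.06, 4.59, 3.31 and 3.62 (4.29 ± 0.78), but the arrays overlapped. Exo1 ranged in Brca1-/-p53+/- over 4.46, 2.48, 7.29, 5.45 and 5.86 (5.11 ± 1.79), and in MMTV-C-Myc over 4.53, 5.91, 7.93 and 8.18. Blm read 7.96, 7.40, 7.72, 8.63 and 8.12 in C3TAg (7.97 ± 0.46). It read 5.96, 3.11, 6.17, 5.97 and 5.24 in Brca1-/-p53+/- (5.29 ± 1.27) and 5.95, 3.07, 4.37, 4.87 and 4.33 in the glands (4.51 ± 1.04). For Exo1, 2 of the other 36 tumors reached the lowest C3TAg array, and for Blm 3 did.

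The genes of the later pairing steps, Brca2, Rad51ap1 and Rad54l, separated C3TAg from every other tumor. Brca2 read 10.06, 9.14, 8.96, 9.35 and 9.65 in C3TAg (9.43 ± 0.44), and the highest of the other tumors read 8.55. The other 7 model means of Brca2 lay between 6.25 (MMTV-PymT) and 7.52 (MMTV-Wnt) and the gland at 6.05 ± 1.18, where 1 gland read 7.95, so this gene separated tumor and gland least. Rad51ap1 read 9.54, 10.16, 10.09, 10.97 and 9.76 in C3TAg (10.10 ± 0.55), with MMTV-C-Myc next at 8.28 ± 0.96 (n = 4). The lowest C3TAg array of Rad51ap1 (9.54) was just above the highest other tumor (9.41).

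Rad54l had the widest span of model means among these 3, from 9.30 ± 0.39 in C3TAg (9.56, 9.08, 9.28, 9.78 and 8.80) to 4.15 ± 0.93 in MMTV-Hras. All 5 glands were below 4 (2.67, 3.74, 2.70, 2.84 and 3.15; 3.02 ± 0.45). Its values in Brca1-/-p53+/- were 3.08, 2.45, 8.12, 6.03 and 6.52 (5.24 ± 2.40), the widest spread of any member in any group. Chek1, the checkpoint kinase, read 9.77, 10.13, 9.94, 10.14 and 9.43 in C3TAg (9.88 ± 0.29) with MMTV-PymT next at 7.78 ± 0.46 (n = 6). In Brca1-/-p53+/- it read 5.96, 3.40, 7.67, 6.44 and 7.19 (6.13 ± 1.66) and in the glands 5.85, 5.48, 3.27, 3.74 and 5.21 (4.71 ± 1.13).

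**Figure D2:**
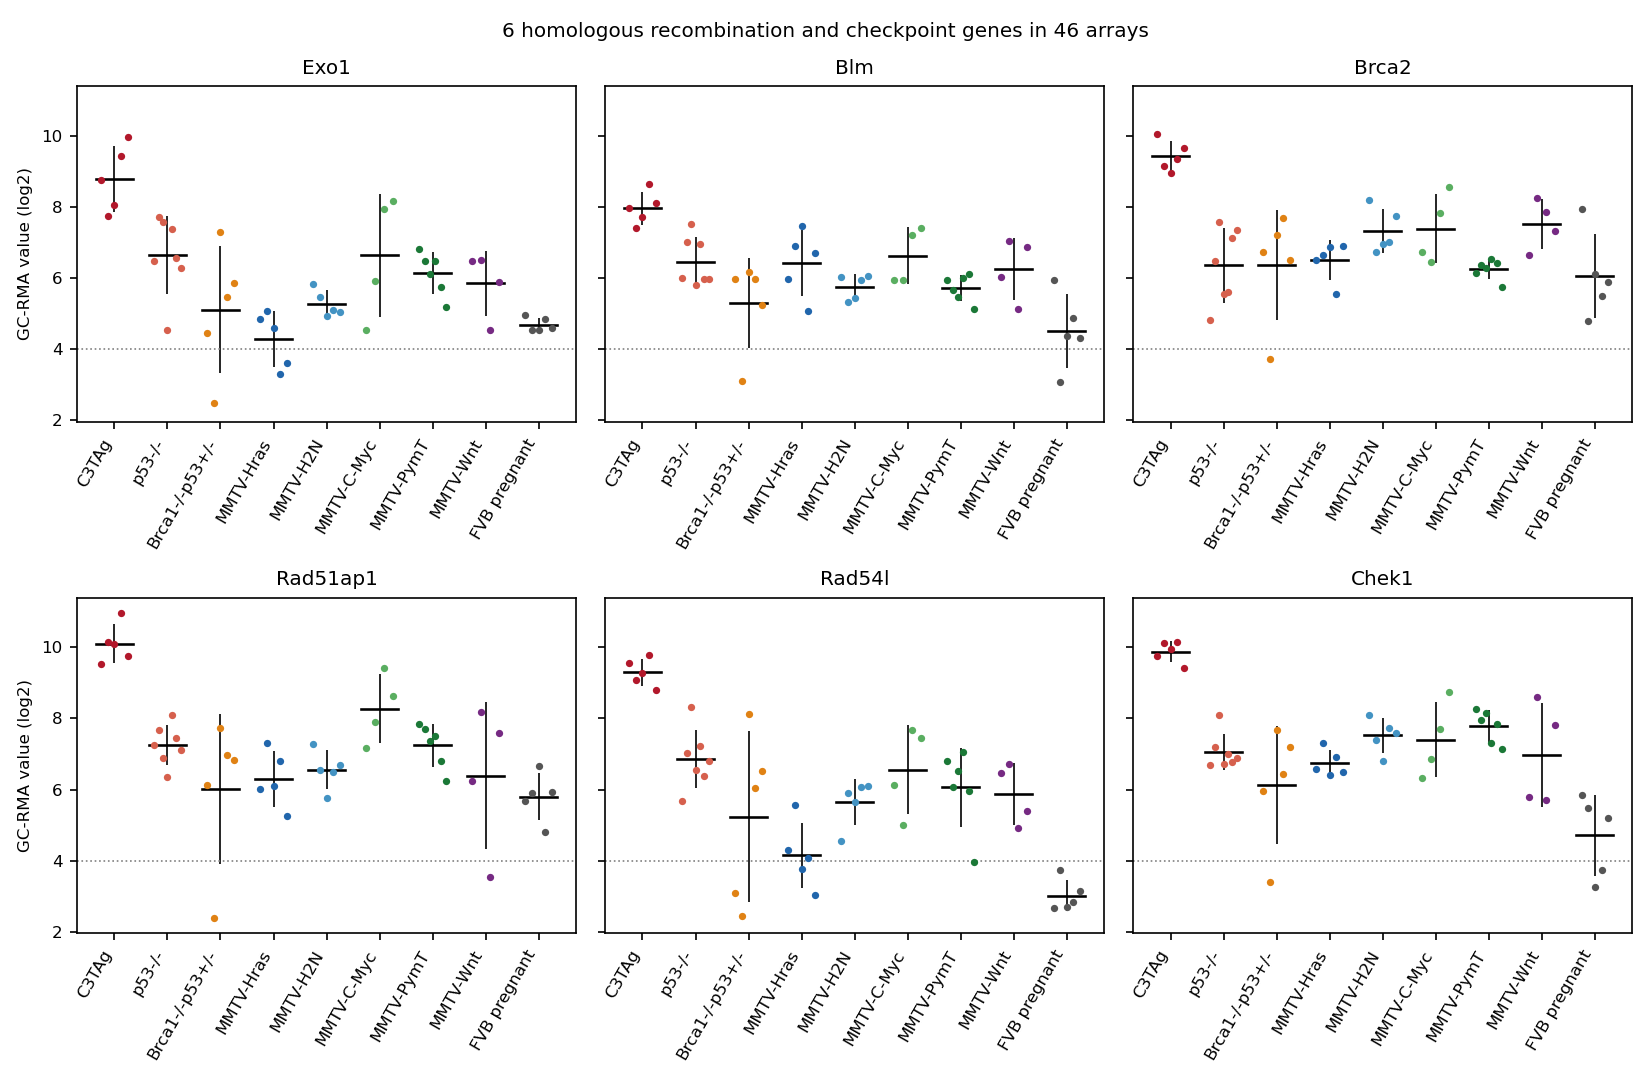
Values (GC-RMA, log2 scale) of Exo1, Blm, Brca2, Rad51ap1, Rad54l and Chek1 in 46 arrays by group; points are arrays, horizontal lines means, vertical lines SD and the dotted line the filter at 4. C3TAg has the highest mean in all 6 genes, from 7.97 (Blm) to 10.10 (Rad51ap1), and replicate 2 is the lowest array of Brca1-/-p53+/- in each.

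Whether tumors differed from the normal gland of pregnant mice was asked with the mean of the 8 models against the 5 glands. All 7 tested members were higher in the tumors, where 24.2% of all genes tested were called higher and 17.1% lower, and their median difference was 1.80 against 0.20 for all genes. Brca1 was higher by 3.92 ± 0.37 (SE; 15.2-fold, adjusted p = 6.19e-11), and 40 of 41 tumors were above the highest gland. Rad54l was higher by 3.19 ± 0.52 (adjusted p = 4.07e-06) and Chek1 by 2.73 ± 0.42 (1.76e-06), each with 38 of 41 tumors above the highest gland. Blm was higher by 1.80 ± 0.37 (0.000135), Rad51ap1 by 1.47 ± 0.50 (0.0168), Exo1 by 1.40 ± 0.48 (0.0172) and Brca2 by 1.09 ± 0.42 (0.0337). No member had all tumors above all glands, and for Brca2 only 8 of 41 tumors were above the highest gland.

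Without the C3TAg model, 4 of the 7 stayed called (Brca1, Blm, Rad54l and Chek1), a count not set beside a share of all genes. Exo1, Brca2 and Rad51ap1 then had adjusted p of 0.10, 0.177 and 0.111. The call of Brca2 ended without gland 2, 3, 4 or 5 (adjusted p from 0.0634 to 0.186) and that of Rad51ap1 without gland 4 (0.0794). Brca2 also lost its call after quantile normalization (adjusted p = 0.107) and after median centring (0.0874). 

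The probe set mattered for several members. Brca1, higher by 3.92 in the probe set used, was higher by 0.92 (adjusted p = 0.0247) in 1424630_a_at and by 0.68 (0.0108) in 1451417_at by limma. The other probe sets of Rad54l, 1423123_at and 1423124_x_at, gave 0.62 (adjusted p = 0.0636) and 0.15 (0.699) in limma, against 3.19 for the one used, and 1417939_at of Rad51ap1 gave 0.64 (0.211), while 1448899_s_at gave 2.68 (1.71e-06) and 1417940_s_at 0.63 (0.00459). All these probe sets were lower in level than the ones used. Among them, 1451417_at of Brca1 and 1417940_s_at of Rad51ap1 passed the filter only through C3TAg, so their calls add no separate support.

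Proliferation genes moved with the tumors: 26 of 26 tested were called higher and the score was -1.60 ± 0.29 in the glands (n = 5) against group means from -0.34 to 1.39 in the tumors. With this score in the fit, Brca1 was higher by 1.92 (adjusted p = 0.000899) and was the only member called higher, while Exo1 was lower by -1.49 (0.0186). The glands had scores from -2.04 to -1.39. All tumors were at -0.97 or above, except Brca1-/-p53+/- replicate 2 at -2.33. The adjusted values are therefore extrapolated along the score and do not compare glands and tumors of equal score. Adipocyte and muscle message was also high in the glands, and 8 of 8 adipocyte genes and 7 of 7 skeletal muscle genes were called lower in the tumors, and the part of these tissues in the result was not tested.

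Each model was also set against the same 5 glands. Brca1 and Chek1 were called higher in 8 of 8 models, Blm and Rad54l in 7, Exo1 in 3, Rad51ap1 in 2 and Brca2 in 1. Brca1 was higher by 6.77 ± 0.49 in C3TAg (adjusted p = 6.19e-14), by 4.45 ± 0.46 in p53-/-, by 3.88 ± 0.49 in Brca1-/-p53+/- (1.82e-07) and by 2.02 ± 0.49 in MMTV-Hras (0.00186), the smallest of the 8. These calls held for 1424629_at: the probe set 1424630_a_at was called in C3TAg (4.65) and p53-/- (1.03) only, and 1451417_at in C3TAg (4.17) only. Without the C3TAg arrays 1451417_at would not have passed the filter. C3TAg had 7 of 7 members called higher, where 29.4% of all genes were, and MMTV-C-Myc had 6 of 7 (17.1% of all genes). In p53-/- 5 of 7 were called (26.1% of all genes), in MMTV-H2N 4 (22.3%), in MMTV-PymT 4 (20.3%) and in MMTV-Wnt 4 (14.5%). The smallest counts were 3 of 7 in MMTV-Hras (Brca1, Blm and Chek1; 14.0%) and 3 of 7 in Brca1-/-p53+/- (Brca1, Rad54l and Chek1; 16.0%). These 8 comparisons share their glands, so they are not independent.

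In a fit of the FVB arrays alone, which holds 6 of the models, Brca2 was called in 4. Single arrays moved some of these counts by over 1.5 times. Without Brca1-/-p53+/- replicate 3 that model had 1 member called. Blm was called in 4 models without gland 2. Brca2 was called in 4 models without Brca1-/-p53+/- replicate 2 or gland 1, and in 2 without MMTV-C-Myc replicate 2 or MMTV-Wnt replicate 1. Rad51ap1 was called in 4 models without Brca1-/-p53+/- replicate 2 or MMTV-Wnt replicate 3.

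**Figure D3:**
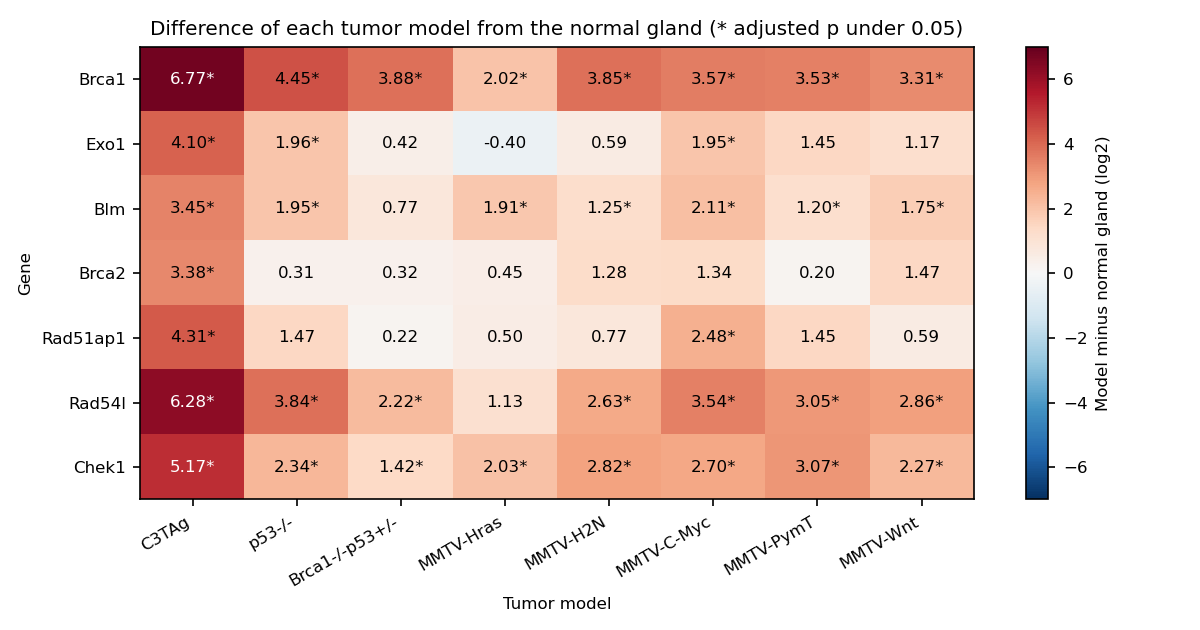
Difference of each of the 8 tumor models from the normal gland (log2 scale) for the 7 tested genes; color and number give the difference and a star marks an adjusted p below 0.05 in limma. Brca1 and Chek1 are starred in all 8 columns, Brca2 only in C3TAg (3.38).

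The 8 models were compared with each other in 1 test per gene. The moderated F test was called for 7 of 7 members and for 74.5% of all genes tested. It gave an adjusted p of 1.00e-07 for Brca1, and from 8.97e-06 (Rad54l) to 0.000656 (Blm) for the others. With the proliferation score in the fit 5 of 7 stayed called, and Exo1 and Rad54l did not (adjusted p = 0.0853 and 0.0654). For that fit no share of all genes was set beside the count. C3TAg had the highest model mean in 7 of 7 members and in 22.3% of all genes. The lowest model mean was MMTV-Hras for Brca1, Exo1 and Rad54l, MMTV-PymT for Brca2, and Brca1-/-p53+/- for Blm, Rad51ap1 and Chek1. This last place rested on replicate 2. Without it the Brca1-/-p53+/- means were 5.83 for Blm (MMTV-PymT 5.72), 6.92 for Rad51ap1 (MMTV-Hras 6.30) and 6.81 for Chek1 (MMTV-Hras 6.74).

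C3TAg was then compared with the mean of the other 7 models. All 7 members were called higher, where 19.5% of all genes were called higher and 9.42% lower, and the median difference was 3.08 against 0.10 for all genes. The differences were 3.53 ± 0.52 (SE) for Rad54l (11.5-fold, adjusted p = 2.25e-06), 3.26 ± 0.37 for Brca1 (9.58-fold, 1.49e-08), 3.24 ± 0.51 for Rad51ap1 and 3.08 ± 0.48 for Exo1. They were 2.79 ± 0.42 for Chek1, 2.61 ± 0.42 for Brca2 and 1.89 ± 0.37 for Blm, the smallest (3.70-fold, adjusted p = 0.000172). In 5 of the 7, every C3TAg array lay above every other tumor, which held for 2.06% of all genes; the exceptions were Exo1 and Blm. In the 7 other probe sets of Exo1, Rad51ap1, Rad54l and Chek1 the C3TAg arrays were also above all other tumors. One of these, 1417940_s_at of Rad51ap1, was over 4 in C3TAg only and passed the filter through it, so it adds no separate support.

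C3TAg was also the model with the highest proliferation score, 1.39 ± 0.22 (1.04 to 1.57, n = 5), followed by p53-/- at 0.50 ± 0.31 (n = 7). Against the other models, 25 of 26 proliferation genes were called higher in C3TAg. With the score in the fit the member differences fell to between 0.38 (Blm) and 1.71 (Brca1), all still positive. Of the 7, 2 remained called, Brca1 (1.71, adjusted p = 0.00087) and Rad54l (1.46, adjusted p = 0.0497). Skeletal muscle genes moved too, with 5 of 7 called higher in C3TAg and scores from -0.75 to 1.37, and their part in the result was not tested.

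Genes of related pathways were counted from lists that exclude the members, and the counts stand beside the 19.5% of all genes called higher and 9.42% called lower in this comparison. Of 25 tested BRCA1 complex and recombination partners, 12 were called higher and 0 lower in C3TAg, with the largest differences in Rad51c (2.94 ± 0.30) and Fignl1 (2.57 ± 0.41). Of 11 Fanconi anemia genes, 7 were higher and 1 lower. Ube2t, the ubiquitin-conjugating enzyme of the pathway, was higher by 2.65 ± 0.48, and Usp1, the enzyme that removes that ubiquitin, by 2.02 ± 0.27, while Faap24 was lower (-0.83 ± 0.32). Of 15 checkpoint genes 9 were higher and 0 lower, led by the phosphatase Cdc25b (3.30 ± 0.40) and the fork protein Timeless (2.79 ± 0.25). Of 9 genes of non-homologous end joining, which rejoins ends without a template, 2 were higher and 0 lower (Mad2l2, 1.20 ± 0.39, and Rif1, 1.15 ± 0.27), a share near that of all genes.

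**Figure D4:**
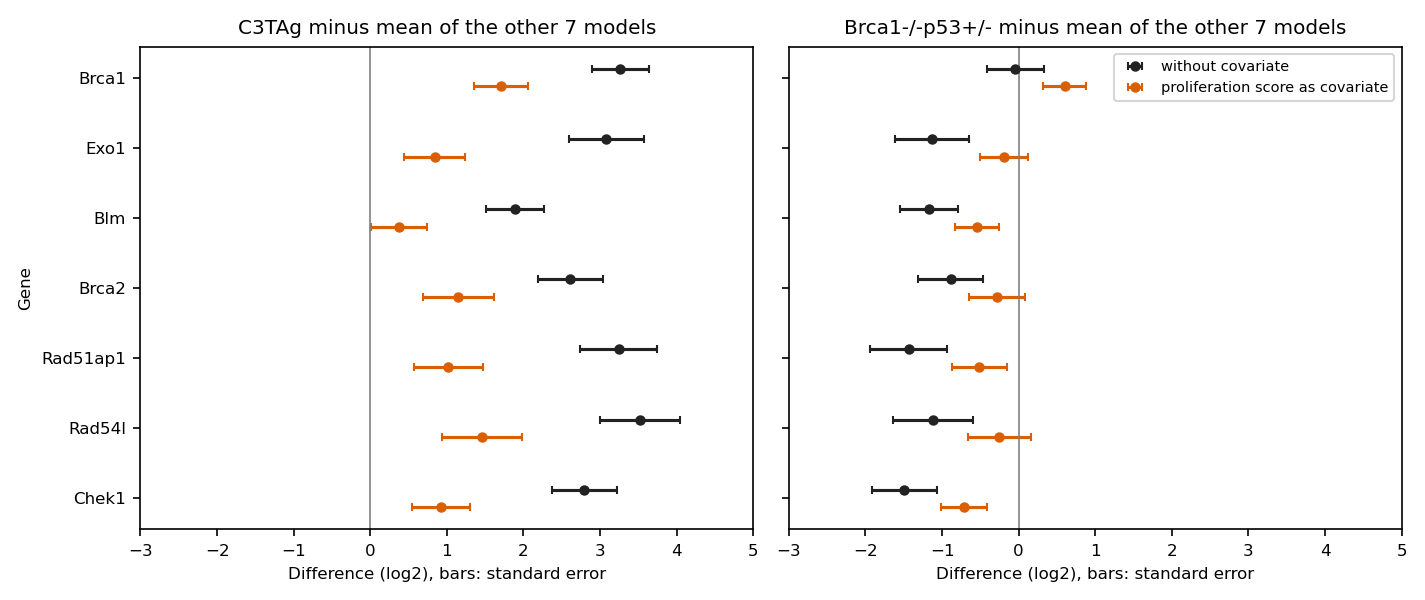
Difference (log2 scale) of C3TAg (left) and of Brca1-/-p53+/- (right) from the mean of the other 7 models for the 7 tested genes; black points are the limma fit, orange points the fit with the proliferation score as a covariate and bars the standard error. In C3TAg all 7 are positive in both fits, and in Brca1-/-p53+/- Brca1 lies at -0.05 without and 0.60 with the covariate.

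In the model with floxed Brca1, the Brca1 message was not called lower. Brca1-/-p53+/- read -0.05 ± 0.37 (SE) against the other 7 models (95% confidence interval -0.80 to 0.71, adjusted p = 0.942). The sign of that difference was not fixed: it was 0.43 (adjusted p = 0.439) with C3TAg left out of the reference, 0.15 after quantile normalization and 0.18 after median centring. The other 2 probe sets that responded gave -0.42 (adjusted p = 0.391) and -0.48 (0.110) with C3TAg in the reference. In these, only C3TAg (means 7.53 and 6.30) and p53-/- (3.91 and 2.68) read above Brca1-/-p53+/- (3.43 and 2.39). The luminal-type means were below it (2.99 to 3.21 and 2.14 to 2.33). All but the C3TAg means were below the filter at 4, and these 2 probe sets were not fitted without C3TAg. Where these probes lie relative to the deleted part of Brca1 was not given in the sources used here, so the arrays do not check the deletion.

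Other members were lower in Brca1-/-p53+/- than in the other models. The 3 called were Chek1 (-1.49 ± 0.42, adjusted p = 0.0125), Blm (-1.17 ± 0.37, 0.0248) and Rad51ap1 (-1.44 ± 0.51, 0.0422), where 11.9% of all genes were called lower and 6.75% higher. Exo1 (-1.13, adjusted p = 0.0930), Rad54l (-1.11, 0.126) and Brca2 (-0.89, 0.132) did not pass. The median of the 7 was -1.13 against -0.14 for all genes. None of the 3 was called without replicate 2 (-0.81, -0.63 and -0.53). None was called with C3TAg left out of the reference (-1.12, -0.92 and -0.99, adjusted p from 0.0592 to 0.165). Without replicate 3, 5 members were called lower, a count not set beside a share of all genes. Rad51ap1 also lost its call without Brca1-/-p53+/- replicate 1, MMTV-C-Myc replicate 3 or MMTV-Wnt replicate 2 or 4 (adjusted p from 0.0502 to 0.0785), with the replicate number as a block (0.0555), after quantile normalization (0.0609) or median centring (0.0706), and in its probe sets 1448899_s_at (-0.89, 0.123) and 1417939_at (-0.72, 0.211).

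Replicate 2 was the lowest of all 46 arrays for Exo1 (2.48), Brca2 (3.71), Rad51ap1 (2.39) and Rad54l (2.45) and the second lowest for Blm (3.11) and Chek1 (3.40), but the ninth lowest for Brca1 (5.71). Without it the model's means were 7.78 ± 0.63 for Brca1, 6.81 ± 0.76 for Chek1 and 6.92 ± 0.65 for Rad51ap1. Markers of other tissue moved in this model: against the other 7 models, 9 of 10 fibroblast and matrix genes, 4 of 8 endothelial genes, 3 of 10 macrophage genes and 2 of 8 adipocyte genes were called higher, and 6 of 9 luminal epithelium genes lower. Among its arrays the fibroblast score ran from -0.96 to 1.63, the adipocyte score from -0.74 to 2.48 and the luminal epithelium score from -3.02 to 0.29. The part of these tissues in the result was not tested. With the proliferation score in the fit, 0 of 7 members were called, and Chek1 had the largest difference (-0.71, adjusted p = 0.123).

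In Brca1-/-p53+/- the counts of related genes called lower were near the 11.9% of all genes, so they say nothing particular about these pathways. Of 25 recombination partners 4 were called lower and 0 higher, led by Rpa3, a subunit of the single-strand binding protein (-1.93 ± 0.49), and Mre11a, a nuclease that starts resection (-1.33 ± 0.40). Of 11 Fanconi anemia genes 2 were lower (Fancl, -2.08 ± 0.34, and Ube2t, -1.41 ± 0.48). Of 15 checkpoint genes 2 were lower, the kinases Atm (-2.08 ± 0.39) and Wee1 (-1.13 ± 0.31). Of 9 end-joining genes 1 was lower, Xrcc6, which encodes Ku70 (-1.57 ± 0.28).

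Brca1-/-p53+/- was also set against p53-/-, the other MMTV-cre model. In this pair 0 of 7 members were called by limma, although 9.38% of all genes were called lower and 3.68% higher. At an unadjusted p below 0.05 in limma there were 3 members, all lower: Rad54l (-1.62 ± 0.64), Exo1 (-1.54 ± 0.59) and Blm (-1.17 ± 0.46), with adjusted p of 0.0855, 0.0756 and 0.0800. Brca1 differed by -0.57 ± 0.46 (95% confidence interval -1.49 to 0.35, adjusted p = 0.422) and Brca2 by 0.01 ± 0.52 (0.991). Without Brca1-/-p53+/- replicate 3, Exo1, Blm and Rad54l were called lower (adjusted p from 0.00964 to 0.0439). Exo1 was called without p53-/- replicate 4 (0.0251) and Rad54l without Brca1-/-p53+/- replicate 5 (0.0417). The 2 models also differ in strain and in transplantation, which cannot be told apart from genotype.

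The study groups C3TAg, p53-/- and Brca1-/-p53+/- as basal-type (17 tumors) and the 5 MMTV transgenic models as luminal-type (24 tumors). Between these classes 3 of 7 members were called higher in basal-type tumors, where 15.9% of all genes were called higher and 12.0% lower. Brca1 was higher by 1.71 ± 0.36 (SE; adjusted p = 0.000651; 8.45 ± 1.37 against 6.73 ± 0.99, SD), Rad54l by 1.47 ± 0.50 (0.0255) and Exo1 by 1.22 ± 0.47 (0.0462). Rad51ap1 (0.80, adjusted p = 0.221), Blm (0.44, 0.296), Brca2 (0.34, 0.550) and Chek1 (0.30, 0.608) did not pass. All 7 groups of values overlapped between the classes. With tumors of a model treated as related (model as a random block), 0 of 7 were called. Brca1 had the smallest adjusted p of the 7 (1.76, adjusted p = 0.0772). In that fit only 19 of all genes tested were called higher and 30 lower. The count of 0 members therefore says nothing particular about these genes.

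The class difference rested on C3TAg for most members. Without that model only Brca1 was called (0.96, adjusted p = 0.033) and Blm, Brca2, Rad51ap1 and Chek1 were negative (from -0.65 to -0.14, none called). With arrays of the FVB strain only, where C3TAg is the sole basal-type model, 7 of 7 were called (1.85 to 3.67). The share of all genes called in that fit was not set beside this count. Exo1 lost its call in 25 of 46 fits that left out 1 array each (adjusted p from 0.0508 to 0.0892). All 25 left out 1 of the 41 tumors, and the 5 glands are not part of this comparison. Its call was also lost with the replicate number as a block (0.0634), after quantile normalization (0.0828) or median centring (0.0501), and without the filter on low values (0.0529). Rad51ap1 gained a call without Brca1-/-p53+/- replicate 2 (0.0369) and with the 8 models weighted equally (0.0480). It was also called in its probe sets 1417939_at (1.28, 0.0308) and 1417940_s_at (0.99, 0.0292). The second of these was over 4 only in the 5 C3TAg tumors. It passed the filter through that basal-type model alone, so its call adds no separate support. With the proliferation score in the fit Brca1 was the only member called higher (0.95, adjusted p = 0.00345) and Chek1 was called lower (-0.63, 0.0398). For that fit no share of all genes was set beside these calls. Of 25 recombination partners 2 were higher and 2 lower, both shares below the 15.9% and 12.0% of all genes, with Rad51d lower by -1.38 ± 0.25 (adjusted p = 0.000107). Of 11 Fanconi anemia genes 2 were higher and 3 lower, of 15 checkpoint genes 2 higher and 0 lower, and of 9 end-joining genes 1 higher and 1 lower. Other markers moved with the classes too: 8 of 10 fibroblast and matrix genes were called higher in basal-type tumors (median 1.85) and 8 of 26 proliferation genes (median 0.92), and the part of fibroblasts in the result was not tested.

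Pooled over all arrays, member values were higher where the proliferation score was higher than its group mean. Over 46 arrays, each taken as its deviation from its group mean, Pearson's r with the score was 0.74 for Brca1 and from 0.61 (Brca2) to 0.81 (Exo1) for the others. Spearman's rho ran from 0.47 (Brca2) to 0.78 (Exo1). The 7 relations were tested by 100000 permutations within groups (two-sided). The adjusted p was 2.3e-05 for Brca1, where the raw p of 1e-05 is the smallest these permutations can give, and the largest of the 7 was that of Brca2, 0.00237 for r and 0.00589 for rho. The 2 arrays farthest from the median of the score were Brca1-/-p53+/- replicates 2 and 3, and without them r was 0.68 for Brca1 and from 0.41 (Brca2) to 0.73 (Exo1). The pooled relation did not hold in each group: among the glands the one with the lowest score (-2.04) had the highest Rad51ap1 value (6.66).

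**Figure D5:**
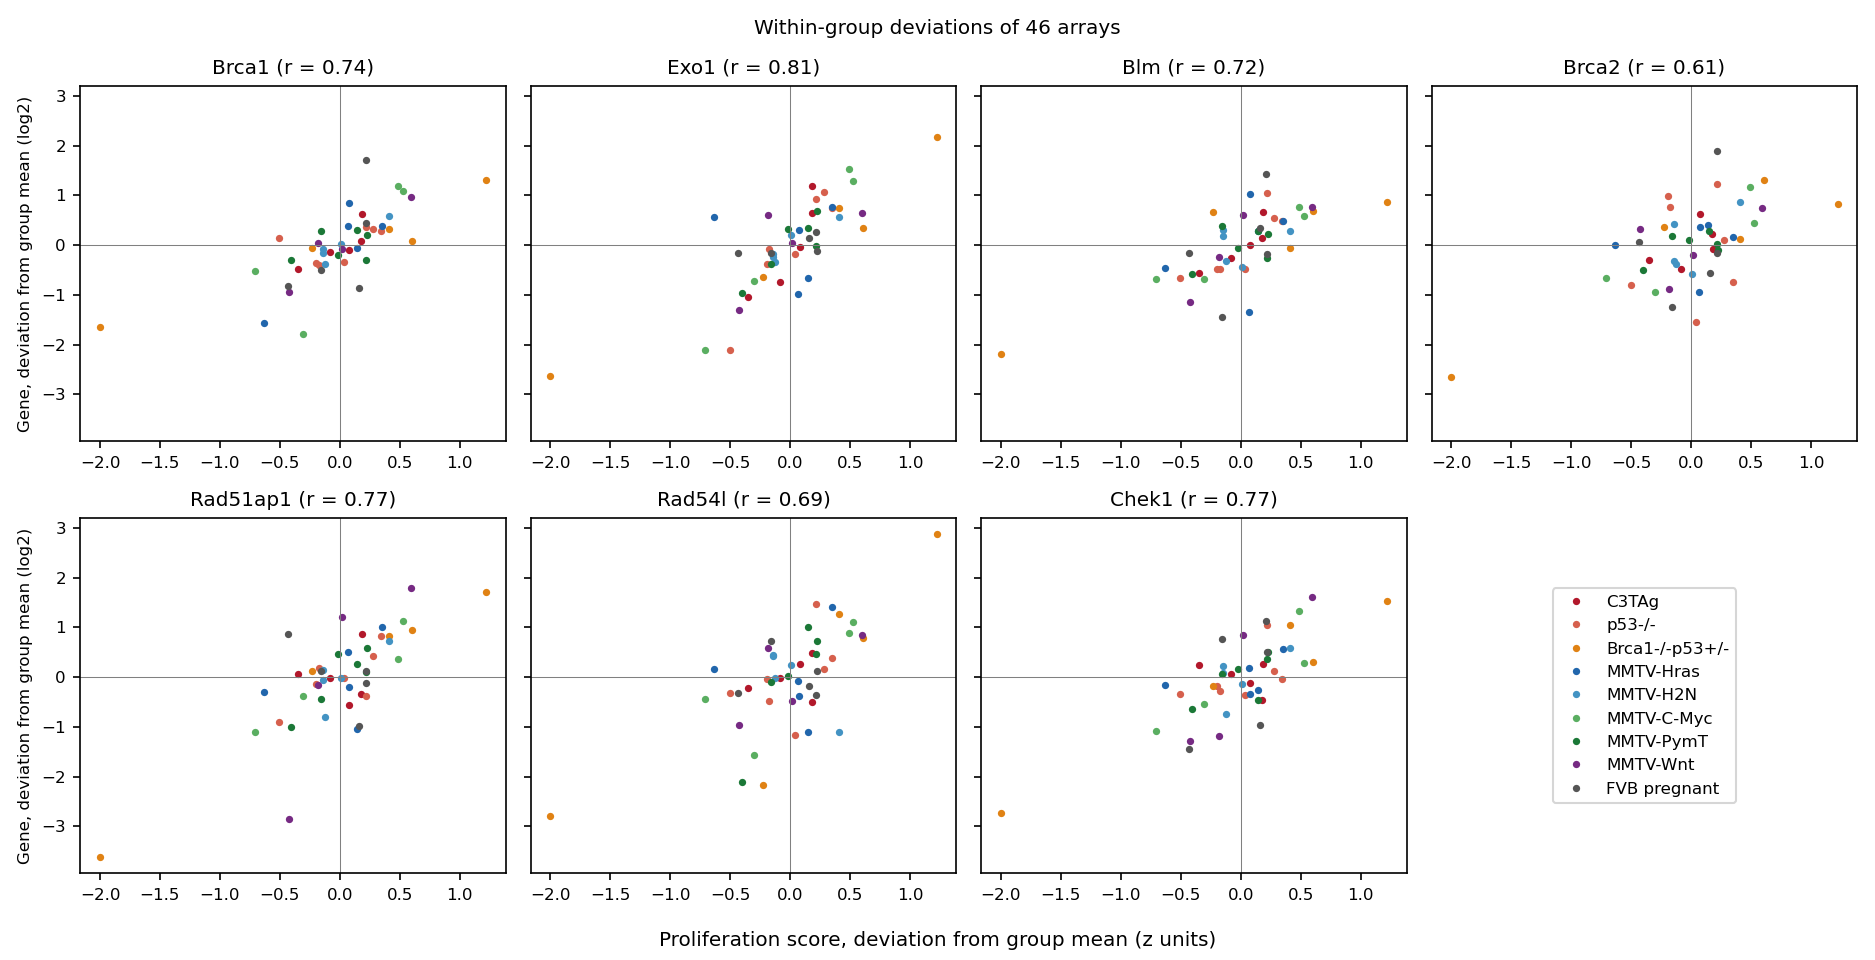
Deviation of each array from its group mean (log2 scale) for the 7 tested genes, against the deviation of its proliferation score (mean z-score of 26 mitotic genes); points are 46 arrays colored by group. Over the pooled points r is 0.61 to 0.81, and the Brca1-/-p53+/- array at the far left is replicate 2.

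The genes whose pattern was most like that of Brca1 were found in the same table, as a description without a test. Over the 46 arrays centered by group they were Aurkb (r = 0.79), the kinase of the chromosomal passenger complex, Kif11 (0.79), a spindle motor, Ncapg (0.77), a condensin subunit, Rbl1 (0.74), the pocket protein p107, and Melk (0.74), a kinase of dividing cells. All genes read on an array share its total hybridization and its tissue mix. Of the members, Blm (0.71) and Chek1 (0.69) were closest to Brca1 and Rad54l (0.53) the least close. Over the 9 group means the closest were Prpf3 (0.99), a splicing factor, Zwilch (0.98), a kinetochore protein, Asf1b (0.98), a histone chaperone, Anln (0.98), a protein of cytokinesis, and Gas8 (0.98), a protein of the dynein regulatory complex. Of the members, Rad54l (0.96) was closest over the group means and Brca2 (0.73) the least close.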

How the data were processed

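Total RNA was labeled and hybridized to Affymetrix mouse oligonucleotide arrays. The authors collected the scans with GCOS, normalized them by GC-RMA in Partek and filtered probe sets by MAS5 calls; the sources used here give no versions. The deposited series table holds log2 values of 18586 probe sets in 46 arrays, with no missing value. GC-RMA pulls probe sets near background together, so differences between low values are compressed, and arrays carry no count depth: the number of arrays limits the precision. Of the probe sets, 16962 had 1 gene in the platform annotation, 569 several and 1055 none; only the first were named.

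Probe sets with a log2 value over 4 in at least 3 arrays were kept, and 1 probe set a gene was used (highest mean). The 9-group fit and the 2-class fit used limma 3.58.1 in R 4.3.3 (lmFit, eBayes) with Benjamini-Hochberg adjustment over all 9329 genes in each comparison, and a gene was called below 0.05. The basal-type and luminal-type comparison pooled tumors by class. Permutations and promoter searches were run in Python 3 with numpy and pandas. Groups came from the sample titles. The fits were tested on simulated data. Members, lists and tests were chosen with earlier results of these data known. Named genes were all members, up to 2 called genes a list and direction with the largest difference, and the 5 genes most like Brca1 by each measure. Alternatives covered scaling, filter, probe set, variance model, strain, replicate block, proliferation score, model as a random block, weighting of the models and leaving out arrays; fits without C3TAg were chosen after seeing the data. Samples were not treated as paired by replicate number in the main fits. Over 166 pairs with the same number the correlation of deviations from the group means had a median of 0.00 (-0.33 to 0.45), and 23 pairs were over 0.1. Pairs with different numbers were not compared, so whether samples of the same number share a batch was not tested.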

Additional observations from a re-analysis of the deposited data

Results flagged for a closer look

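Each of the 7 members was examined in each of the 9 groups, 63 sets of values, and 4 of these held an array far from the others (Dixon's criterion, which chance meets in about 1 of 20 groups). Brca2 in MMTV-Hras replicate 4 was 5.55, and the nearest tumor of that model was 6.51. Rad54l in MMTV-H2N replicate 1 was 4.55 with the nearest at 5.65, and Rad54l in MMTV-PymT replicate 6 was 3.96 with the nearest at 5.96. Chek1 in p53-/- replicate 3 was 8.11, above the nearest at 7.19.

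The differences of the 8 models from the same glands were unequal in all 7 members by limma's F test. This is the F test of the 8 models given above, which was called for 74.5% of all genes tested. The adjusted p was 1.00e-07 for Brca1, 1.39e-05 for Exo1, 0.000656 for Blm, 6.08e-05 for Brca2, 3.81e-05 for Rad51ap1, 8.97e-06 for Rad54l and 4.09e-05 for Chek1.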

How the results depend on the processing

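Of 369 member values under other settings, 309 kept their direction and side of the threshold, and of 2300 values without 1 array each 2245 did. In the other probe sets 40 of 61 did, 18 lost their call, 2 gained one and 1 changed sign. These include 1451417_at of Brca1 and 1417940_s_at of Rad51ap1, which passed the filter only through C3TAg. The values without 1 array include fits without a gland, which is not part of the basal-type and luminal-type comparison. The replicate number as a block, which pairs samples by number only, kept 7 members called in tumors and in C3TAg, 2 called lower in Brca1-/-p53+/- and 2 called higher in basal-type tumors.

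With the proliferation score as a covariate, members called higher were 1 in tumors against glands, 2 in C3TAg against the other models, 1 in basal-type tumors, 1 each against the glands in C3TAg, p53-/-, Brca1-/-p53+/-, MMTV-H2N, MMTV-C-Myc, MMTV-PymT and MMTV-Wnt and 0 in MMTV-Hras. Members called lower were 1 in tumors, 1 in basal-type tumors, 0 in Brca1-/-p53+/- against the other models and 2 each against the glands in p53-/-, Brca1-/-p53+/-, MMTV-Hras, MMTV-H2N and MMTV-Wnt. Genes called then numbered 626 higher in tumors, 771 higher in C3TAg, 355 higher and 561 lower in Brca1-/-p53+/- against the other models, and 131 and 303 against p53-/-. Under it the sign turned in tumors for Exo1 (-1.49), Blm (-0.15), Brca2 (-0.79) and Rad51ap1 (-1.39), in Brca1-/-p53+/- for Brca1 (0.60), against p53-/- for Brca1 (0.36), Rad51ap1 (0.0822) and Chek1 (0.20), and in basal-type tumors for Blm (-0.22), Brca2 (-0.39), Rad51ap1 (-0.35) and Chek1 (-0.63). How far the score, whose genes differ between groups as the members do, removes the comparison itself was not tested. Against the glands the adjusted values are extrapolated, since the glands and nearly all tumors do not share a range of the score.

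Median centring moved the median of all genes by up to -0.42 (C3TAg against glands). In Brca1-/-p53+/- it gave 1 member called lower, with 1066 genes higher and 648 lower, and it turned Brca1 (0.18), as did quantile normalization (0.15). Against p53-/- it gave 730 higher and 391 lower, and quantile normalization 498 lower. In C3TAg 1489 genes were lower. The cause was not tested.

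Without the C3TAg model 4 members were called in tumors and 1 in basal-type tumors (957 genes higher), where Blm (-0.14), Brca2 (-0.57), Rad51ap1 (-0.19) and Chek1 (-0.65) turned. With C3TAg left out of the reference 0 members were called in Brca1-/-p53+/-, and Brca1 was 0.43. FVB arrays only gave 7 members in basal-type tumors. The model as a random block gave 0 members, 19 genes higher and 30 lower. The probe set 1423124_x_at turned Rad54l against p53-/- (0.17).

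Leaving out 1 array at a time, members called ran from 1 to 4 in Brca1-/-p53+/- against glands, from 0 to 5 (lower) against the other models and from 0 to 3 (lower) against p53-/-. Genes called ran from 333 to 1085 higher and 620 to 1579 lower against the other models, and from 192 to 540 and 418 to 1139 against p53-/-. Brca1 against the other models ran from -0.38 to 0.37 and Brca2 against p53-/- from -0.32 to 0.67, so neither had a settled sign.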
